A study of Mus musculus with 17 samples.

Results

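The motile cilia genes of airway cells were 42 genes of the axoneme and of ciliated cells, chosen by symbol from a fixed list, of 18262 genes in the deposited table. All 42 were listed, and all 42 were among the 15422 genes that passed the minimum for testing. The table came from bulk RNA sequencing of whole lung from C57BL/6 mice, in 4 groups of 4 libraries, in a study of the lung before metastasis in a syngeneic rhabdomyosarcoma model. A leg tumor and a cell treatment were crossed. Naive untreated lungs had neither. Naive IL12-GEMy lungs came from tumor-free mice given 8000000 IL12-GEMys intravenously, and were taken 3 days later. Tumor untreated lungs came from mice with 500000 M3-9-M rhabdomyosarcoma cells, carrying luciferase and mCherry, placed in the gastrocnemius muscle. These lungs were taken on day 15. Tumor IL12-GEMy lungs had both, with the cells given on day 12 of tumor growth and lungs taken 3 days later, on day 15. IL12-GEMys, engineered myeloid cells that carry IL12, are bone marrow cells transduced with a lentivirus and grown with SCF, FLT3L and IL-6. A single library of that cell product was also sequenced. The labels do not say that the 4 lungs of a group came from separate mice, so p-values measure only the spread between these samples.

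Motile cilia are beating projections on multiciliated airway cells that move mucus out of the lung. Foxj1 is the transcription factor that runs the late ciliogenesis program, together with RFX factors that bind the X-box in promoters of cilia genes. Outer and inner dynein arms drive sliding of the microtubule doublets, radial spokes and the central apparatus coordinate it, and ruler, tether and nexin-dynein proteins space the parts. Tektins and other proteins line the inside of the doublets.

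Promoters were read for the letters of the factors named above, and any part of those factors in the changes described below was not tested. RefSeq windows (GRCm38.p6) of the 250 bases before the start were held for 37 of 42 members, and not for Foxj1, Dnah3, Rsph1, Rsph4a and Tppp3. On either strand, the X-box (GTNNCC, then 3 bases of any kind, then GNAAC) was found in 5 of 37 member windows (13.5%) and in 2.26% of the 12120 windows of tested genes. The RFX half-site GTTGCC was in 14 (37.8%) against 10.9%, and the forkhead letters GTAAACA in 3 (8.11%) against 2.28%. A half-site lies inside 3 of the 5 X-box matches, so these counts overlap. Only a gap of 3 bases was searched, so an X-box with another gap was not counted. The matched letters are shown because they follow the pattern that the 5 members share. They are written on the gene's strand, where Tekt4 matches directly and the other 4 on the opposite strand. Their first bases lay 19 to 160 bases before the start:
Hydin: GTTGCTGTGGCAAC
Cfap44: GTTGCTATGGCAAC
Lrriq1: GTTGCCATGGCTAC
Cfap206: GTTTCCACGGTTAC
Tekt4: GTGTCCTGGGAAAC
The whole windows of Hydin, chr8:110266727-110266976 on the plus strand, and Cfap44, chr16:44394549-44394798 on the plus strand, show how close to the start the X-box (capitals) sits, 21 and 27 bases before it. Hydin and Cfap44 were called lower with the tumor alone and with IL12-GEMy alone. For Cfap44 these calls were lost in 6 and 5 of 21 settings. Of the other members with a match to this pattern, Cfap206 was called lower in both comparisons. Tekt4 was called lower with the tumor only (adjusted p with IL12-GEMy alone 0.111 by limma), and Lrriq1 in neither (0.0671 and 0.287). A match is a description of letters and not a measured binding site.
Hydin promoter: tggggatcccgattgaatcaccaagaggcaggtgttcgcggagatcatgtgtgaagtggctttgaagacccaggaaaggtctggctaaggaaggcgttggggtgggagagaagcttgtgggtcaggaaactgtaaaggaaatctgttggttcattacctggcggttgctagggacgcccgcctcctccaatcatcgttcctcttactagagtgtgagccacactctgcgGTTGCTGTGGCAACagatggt
Cfap44 promoter: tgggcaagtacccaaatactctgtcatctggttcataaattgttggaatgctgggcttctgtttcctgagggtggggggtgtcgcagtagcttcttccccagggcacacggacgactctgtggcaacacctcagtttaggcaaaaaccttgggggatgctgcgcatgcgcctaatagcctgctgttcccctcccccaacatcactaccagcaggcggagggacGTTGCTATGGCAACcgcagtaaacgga

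Levels are given as RPM, reads per 1000000 reads assigned to genes, recovered from the deposited FPKM. Assigned reads ran from 27566842 to 36815048 over the 16 lung libraries, and the lowest member value in any lung rested on 74 reads. The 5 erythroid markers, mostly hemoglobin genes, summed to between 748 and 42388 RPM and were highest in the tumor untreated library numbered 4. Neutrophil markers summed to 285 to 380 RPM in naive untreated, 271 to 337 RPM in naive IL12-GEMy, 3078 to 5148 RPM in tumor untreated and 1614 to 4645 RPM in tumor IL12-GEMy lungs. All 8 neutrophil markers were called higher with the tumor, with a median log2 difference of 4.33. The digit in the labels' descriptions of tumor lungs differs between untreated and treated mice; its meaning is not stated, and it cannot be told apart from the treatment.

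Every member was detected in every lung library, Foxj1 among them, as in tissue that holds ciliated airway cells. Foxj1 reached 40.6 ± 2.05 RPM per exonic kb (SD, n = 4) in naive untreated lung. On that length-corrected scale Tppp3, a tubulin polymerization-promoting protein of ciliated cells, was highest at 253 ± 11.9, and Dnah7a, an inner arm dynein heavy chain, was lowest at 0.344 ± 0.00848. Foxj1 and Tmem212, at 40.6 ± 1.51, stood next to each other and did not differ beyond their spread. Fam183b (31.2 ± 0.989), Rsph1 (22.4 ± 0.984), Cfap126 (19.3 ± 1.01) and Dnali1 (18.1 ± 0.276) followed, and the last pair of neighbours overlapped in SD. The injected cell product held little of the program. Its 42 members summed to 44.8 RPM, 15 members were at 0 and 35 were under 1 RPM. Of that sum 32.9 RPM was Mns1, a protein of the doublet lumen.

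Summed over the 42 members, levels were 1607, 1626, 1513 and 1578 RPM in the naive untreated lungs. They were 1399, 1337, 1281 and 1131 RPM in the naive IL12-GEMy lungs. The tumor untreated lungs held 1325, 1218, 1118 and 964 RPM, and the tumor IL12-GEMy lungs 1272, 1237, 1210 and 1057 RPM. The naive untreated lungs were thus the 4 highest, with no library of another group reaching 1513 RPM. The other 3 groups overlapped each other. Tppp3 made up 29.6% of the naive untreated sum, and without it the mean sums were 1113, 883, 830 and 876 RPM in the same order of groups. By group mean, 41 of 42 members were highest in naive untreated lung, and Mns1 was equal at 12.8 RPM in naive untreated and tumor IL12-GEMy lung.

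**Figure D1:**
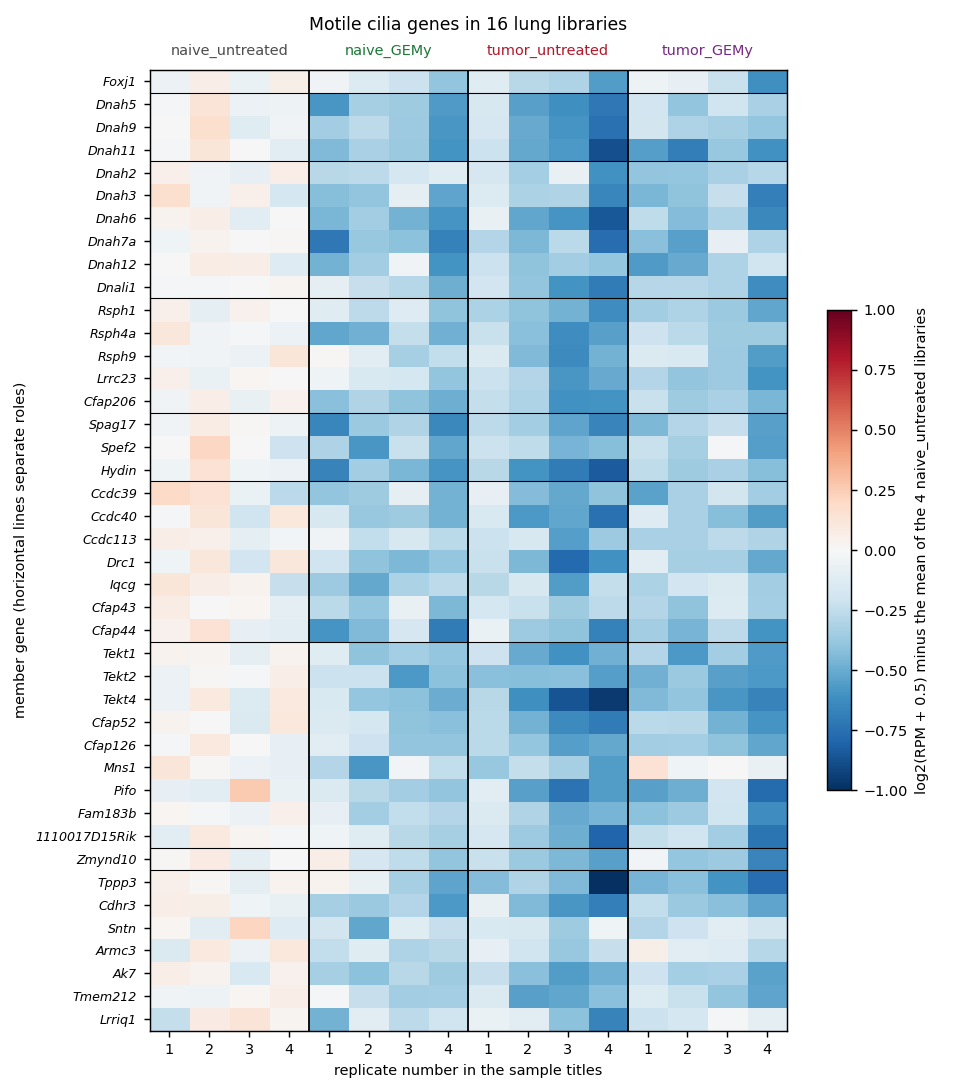
Each row is 1 of the 42 members, grouped by role, and each column 1 of the 16 lung libraries; color gives log2(RPM + 0.5) minus the mean of the 4 naive untreated libraries. Nearly every row turns blue outside the naive untreated group, and within the tumor untreated group library 1 is highest for 34 members and library 4 lowest for 23.

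The first comparison, tumor untreated against naive untreated, asked what a distant leg tumor did to these genes. Expression of 39 of 42 members fell (adjusted p under 0.05, limma on log2(RPM + 0.5) with Benjamini-Hochberg adjustment over all genes), and none rose. Among all genes tested, 26.0% fell and 14.7% rose. The members' median log2 difference was -0.43, with a range from -0.68 to -0.18, beside a median of -0.09 over all genes. For 30 members the 4 tumor lungs all lay under the 4 naive lungs, against 23.4% of all genes. In bulk tissue, fewer ciliated cells and less cilia RNA per cell cannot be told apart. The fall was also not particular to the members. Medians of club cell, alveolar type 2, alveolar type 1 and general epithelial markers were -0.44, -0.38, -0.58 and -0.57 in this comparison. That of leukocyte markers was 1.37, and the part of these other cells was not tested. Scaling bears on the counts of members called. With median-of-ratios scaling 29 members fell, and calls over all genes went from 4006 lower and 2271 higher to 2521 lower and 3102 higher. The members' median log2 difference was then -0.35, beside -0.0056 over all genes.

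The transcription factor Foxj1 (chr11:116330704-116335354; all positions are on mm10) was among the members that fell, but only slightly. Its libraries held 102, 112, 101 and 111 RPM in naive untreated lung and 104, 96.6, 91.4 and 81 RPM with IL12-GEMy alone. With the tumor they held 97.8, 87.6, 86 and 72.1 RPM untreated and 103, 101, 91.3 and 69.2 RPM after IL12-GEMy. Every tumor untreated library lay under the lowest naive untreated library, by a small margin. The log2 difference was -0.32 ± 0.12 (SE), with an adjusted p of 0.0364 by limma. This call was lost with median-of-ratios scaling (adjusted p = 0.140), and in 9 of the 22 settings tried in all, over which the adjusted p reached 0.140 at most. These included leaving out the naive untreated library numbered 1, 2 or 4, or the tumor untreated library numbered 2, 3 or 4.

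All 3 outer arm heavy chains, the motors that set beat frequency, fell with the tumor. Dnah5 read 62, 69, 60.6 and 60.7 RPM in the naive untreated lungs and 42, 49.9, 49.1 and 42.4 RPM in the naive IL12-GEMy lungs. The level of Dnah5 was 56.3, 43.1, 41 and 38.1 RPM in the tumor untreated lungs and 55, 47.9, 54.7 and 50.3 RPM in the tumor IL12-GEMy lungs. Dnah5 (chr15:28203766-28472045) was lower in all 4 tumor untreated lungs than in any naive untreated lung, with a log2 difference of -0.51 ± 0.10 and an adjusted p of 0.000973. Levels of Dnah9 in naive lung were 36, 40.3, 33.2 and 35.3 RPM untreated and 28.2, 30.0, 27.9 and 24 RPM after IL12-GEMy. Its levels in tumor lung were 32.1, 25.3, 23.8 and 21.3 RPM untreated and 31.8, 29, 28.6 and 27.6 RPM after IL12-GEMy. Dnah9 (chr11:65831324-66168551), the partner of Dnah5 along the distal axoneme, differed by -0.50 ± 0.11 on the log2 scale. The listed Dnah9 span overlaps Gm12296 on the opposite strand, and whether reads were counted by strand is not given in the sources used here. In all, 7 members overlap another listed gene, among them Dnah11 (Cdca7l), Iqcg (Lrch3) and Ccdc39 (Ttc14), also on opposite strands.

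The inner arm chains, which shape the bend of the cilium, fell in 6 of 6 cases. The calls of Dnah2, Dnah3, Dnah12 and Dnah7a were lost in 7, 6, 4 and 1 of 21 settings. Dnah6 read 56.2, 57.4, 51 and 54.9 RPM in the naive untreated lungs and 39.7, 42.9, 39.4 and 36.3 RPM in the naive IL12-GEMy lungs. The level of Dnah6 was 52, 38.2, 36.3 and 30.3 RPM in the tumor untreated lungs and 45.8, 40.5, 44.2 and 34.9 RPM in the tumor IL12-GEMy lungs. Dnah6 (chr6:73017607-73221631) had 1 tumor untreated library, numbered 1, inside the naive range, and the group difference was -0.51 ± 0.12. Libraries of Dnali1, the light intermediate chain, held 38.3, 38.1, 38.8 and 39.4 RPM in naive untreated lung and 36.3, 32.9, 31.7 and 27.5 RPM with IL12-GEMy alone. With the tumor they held 33.8, 29.2, 25.3 and 23.7 RPM untreated and 31.6, 31.5, 31.1 and 24.9 RPM after IL12-GEMy. All tumor lungs were under all naive untreated lungs for Dnali1 (chr4:125055339-125065657), which fell by 0.47 on the log2 scale. It overlaps Gnl2 on the opposite strand. Levels of Dnah7a in naive lung were 4.26, 4.52, 4.36 and 4.42 RPM untreated and 2.49, 3.27, 3.18 and 2.56 RPM after IL12-GEMy. Its levels in tumor lung were 3.5, 3.08, 3.55 and 2.38 RPM untreated and 3.16, 2.85, 4.13 and 3.45 RPM after IL12-GEMy. Dnah7a (chr1:53397002-53706784) was low throughout, and since Dnah7b and Dnah7c are close copies, its reads may be split among them.

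Radial spoke genes, which pass signals between the central apparatus and the arms, fell in 5 of 5 cases. Rsph4a read 39.1, 35.1, 35.5 and 34.7 RPM in the naive untreated lungs and 25, 25.7, 30.4 and 25.7 RPM in the naive IL12-GEMy lungs. The level of Rsph4a was 30.8, 26.9, 23.2 and 24.6 RPM in the tumor untreated lungs and 31.2, 29.8, 28 and 28.1 RPM in the tumor IL12-GEMy lungs. Rsph4a (chr10:33905111-33916021), a spoke head protein, was lower in every tumor untreated lung. Levels of Rsph1 in naive lung were 31.8, 28.8, 31.6 and 30.8 RPM untreated and 28.2, 25.5, 28 and 23.1 RPM after IL12-GEMy. Its levels in tumor lung were 24.5, 23.2, 21.9 and 19.8 RPM untreated and 24.1, 24.7, 23.6 and 21.3 RPM after IL12-GEMy. Rsph1 (chr17:31255020-31277296), another spoke head protein, showed the same separation, with a log2 difference of -0.45 ± 0.08 and an adjusted p of 0.000393.

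The central apparatus held the lowest adjusted p of the members. Hydin read 37.7, 42.8, 37.5 and 37.2 RPM in the naive untreated lungs and 24.2, 30.3, 28.2 and 25.6 RPM in the naive IL12-GEMy lungs. The level of Hydin was 31.9, 25.5, 23.7 and 21.5 RPM in the tumor untreated lungs and 32.4, 30.1, 30.8 and 28.7 RPM in the tumor IL12-GEMy lungs. Hydin (chr8:110266977-110610253) builds a projection of the central pair, and all 12 libraries of the other groups were under its lowest naive untreated library. Its log2 difference with the tumor was -0.60 ± 0.10, with an adjusted p of 0.000232. Libraries of Spag17, also of the central pair, held 15.2, 16.4, 15.7 and 15 RPM in naive untreated lung and 9.72, 11.9, 12.5 and 9.79 RPM with IL12-GEMy alone. With the tumor they held 12.9, 12.1, 10.6 and 9.65 RPM untreated and 11.2, 12.6, 13.2 and 10.5 RPM after IL12-GEMy. Spag17 (chr3:99885417-100143322) differed by -0.45 ± 0.11 and overlaps Wdr3 on the opposite strand. Spef2 was the third gene of the class and fell by 0.34 on the log2 scale, a call lost in 9 of 21 settings.

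All 7 ruler, tether and nexin-dynein genes fell with the tumor. The calls of Ccdc39, Cfap44 and Cfap43 were lost in 8, 6 and 5 of 21 settings, and that of Iqcg in 5 of 22. Ccdc40 read 46.7, 51.6, 41.2 and 51.1 RPM in the naive untreated lungs and 42.3, 36.4, 36.9 and 34.1 RPM in the naive IL12-GEMy lungs. The level of Ccdc40 was 42.7, 31.8, 33 and 28.1 RPM in the tumor untreated lungs and 43.3, 37.8, 35.2 and 32 RPM in the tumor IL12-GEMy lungs. Ccdc40 (chr11:119228572-119265238) sets the repeat length of the axoneme with Ccdc39. Its tumor untreated library numbered 1 lay inside the naive range. Levels of Cfap43 in naive lung were 35.4, 33.5, 34 and 31.2 RPM untreated and 27.7, 25.5, 31.8 and 24.4 RPM after IL12-GEMy. Its levels in tumor lung were 29.6, 28.7, 26 and 27.8 RPM untreated and 27.3, 25.3, 30.3 and 26.3 RPM after IL12-GEMy. Cfap43 (chr19:47736857-47837361), a tether protein of the inner arms, had the smallest called difference of all members, -0.25 ± 0.08 with an adjusted p of 0.0224.

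Doublet lumen genes fell in 9 of 9 cases, and Tekt4 showed the widest difference of all 42 members. Tekt4 read 13.8, 15.4, 13 and 15.4 RPM in the naive untreated lungs and 12.9, 10.9, 10.7 and 10.1 RPM in the naive IL12-GEMy lungs. The level of Tekt4 was 11.8, 9.21, 7.69 and 7.15 RPM in the tumor untreated lungs and 10.5, 10.8, 9.44 and 8.84 RPM in the tumor IL12-GEMy lungs. Tekt4 (chr17:25471590-25476594), a tektin filament protein, differed by -0.68 ± 0.13 on the log2 scale with an adjusted p of 0.000574. Levels of Cfap126 in naive lung were 33.8, 36.6, 34.4 and 32.4 RPM untreated and 31.9, 29.7, 25.9 and 26 RPM after IL12-GEMy. Its levels in tumor lung were 28.3, 26.1, 23.3 and 23.9 RPM untreated and 26.8, 26.9, 25.8 and 23.7 RPM after IL12-GEMy. Cfap126 (chr1:171121661-171126967) and Cfap52 (chr11:67924806-67965642), both lumen proteins, fell by 0.43 and 0.52 on the log2 scale. Libraries of Cfap52 held 21.7, 21.2, 19 and 22.7 RPM in naive untreated lung and 19.1, 18.6, 15.9 and 15.7 RPM with IL12-GEMy alone. With the tumor they held 17.4, 15.1, 13.4 and 12.8 RPM untreated and 17.5, 17.4, 15 and 13.9 RPM after IL12-GEMy. None of the tumor untreated lungs reached the naive untreated range for either gene.

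Zmynd10 (chr9:107547304-107551321), which helps assemble dynein arms in the cytoplasm, and most other genes of ciliated cells also fell. Libraries of Zmynd10 held 13.6, 14.3, 12.6 and 13.5 RPM in naive untreated lung and 14.2, 11.9, 11.2 and 10.1 RPM with IL12-GEMy alone. With the tumor they held 11.5, 10.3, 9.72 and 9.09 RPM untreated and 13.2, 10.2, 10.4 and 8.32 RPM after IL12-GEMy. The log2 difference of Zmynd10 with the tumor was -0.40 ± 0.12, and the call was lost in 3 of 22 settings. Tppp3 read 485, 471, 436 and 478 RPM in the naive untreated lungs and 478, 444, 370.2 and 324 RPM in the naive IL12-GEMy lungs. The level of Tppp3 was 346, 380.2, 344 and 232 RPM in the tumor untreated lungs and 339, 350.1, 308 and 275 RPM in the tumor IL12-GEMy lungs. Tppp3 (chr8:105467492-105471422) fell by 0.54 on the log2 scale, and its lowest value in the series was in the tumor untreated library numbered 4. Levels of Cdhr3 in naive lung were 57.3, 57, 53.2 and 52 RPM untreated and 43.5, 42.2, 44.6 and 36.7 RPM after IL12-GEMy. Its levels in tumor lung were 52, 40.3, 36.4 and 33.9 RPM untreated and 46.2, 42.4, 40.9 and 37.9 RPM after IL12-GEMy. Cdhr3 (chr12:33033796-33092875), a cadherin-related protein of ciliated cells, fell by 0.45, with tumor untreated library 1 at the edge of the naive range. The 3 members that did not pass were Sntn at -0.18 (adjusted p = 0.172), Armc3 at -0.22 (adjusted p = 0.0753) and Lrriq1 at -0.31 (adjusted p = 0.0671).

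**Figure D2:**
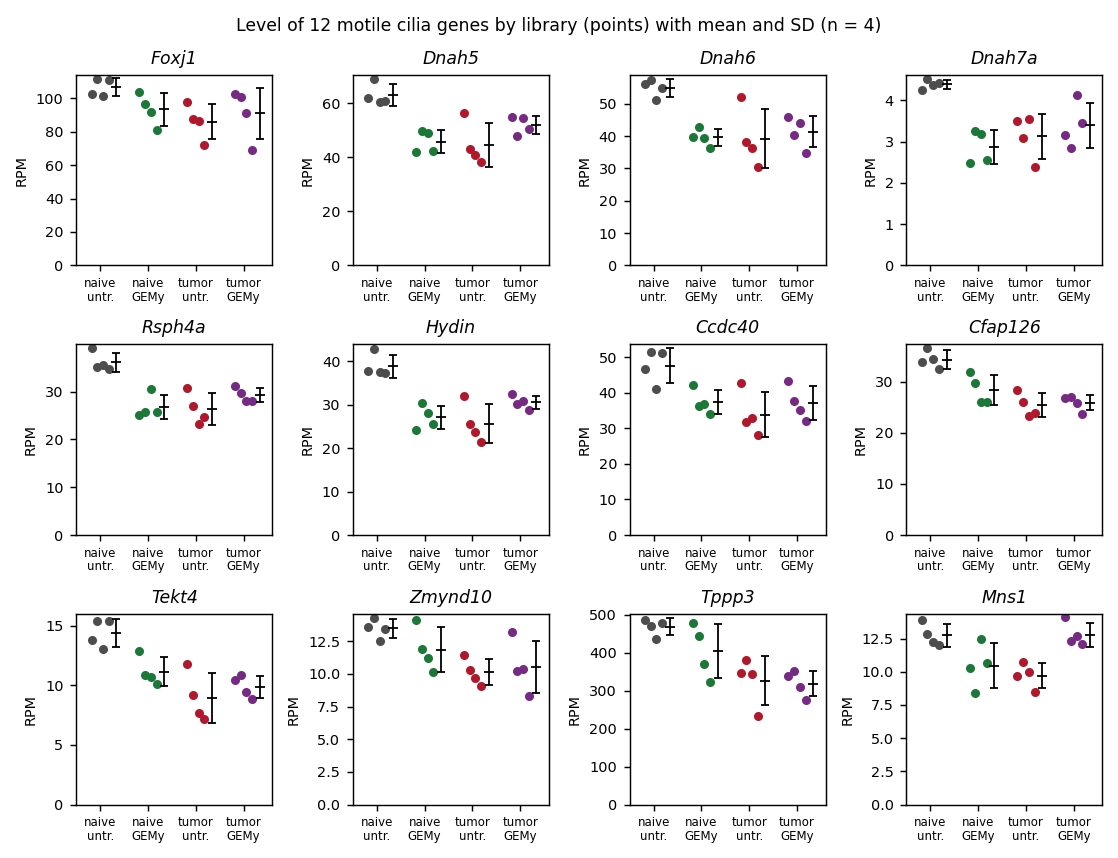
Each panel shows 1 of 12 members in the 16 lung libraries as RPM (axes start at 0), with the mean and SD (n = 4) beside each group's points. Hydin, Dnah5 and Rsph4a are lower in the 3 other groups than in naive untreated lung, with tumor IL12-GEMy lungs between, and Mns1 stands at 12.8 RPM in both naive untreated and tumor IL12-GEMy lung.

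Naive IL12-GEMy lungs were then set against naive untreated lungs, to ask what the treatment did without a tumor. The untreated lungs are titled as having no treatment, and no group received other cells or an injection without cells. Here and in the later comparisons, effects of IL12, of the transferred cells and of the injection cannot be told apart. Both this and the preceding comparison use the same 4 naive untreated libraries, so they are not independent. Expression of 15 members fell and none rose, against 1.58% of all genes lower and 5.12% higher. The median log2 difference was -0.32, beside -0.04 over all genes, and all 42 members lay between -0.54 and -0.17. For 24 members the groups did not overlap, against 8.69% of all genes. The 15 were Dnah5, Dnah9 and Dnah11 of the outer arms, Dnah6 and Dnah7a of the inner arms, Rsph4a and Cfap206 of the spokes, Hydin and Spag17 of the central apparatus, Iqcg, Cfap43 and Cfap44 of the ruler and tether class, Tekt2, Cdhr3 and Ak7. Of these, Dnah9, Dnah11, Spag17 and Iqcg overlap a listed gene on the opposite strand, and the part of that overlap was not tested.

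Dnah7a had the widest difference with IL12-GEMy alone, -0.54 ± 0.13 with an adjusted p of 0.0144 by limma. Hydin followed at -0.52 ± 0.10 with an adjusted p of 0.00348. Dnah5 differed by -0.46 ± 0.10 (adjusted p = 0.00884), Rsph4a by -0.43 ± 0.09 (adjusted p = 0.00417) and Spag17 by -0.49 ± 0.11 (adjusted p = 0.00711). Each of these 5 genes had its 4 naive IL12-GEMy libraries under its 4 naive untreated libraries. Hydin, Dnah5, Rsph4a, Spag17 and Cfap206 kept their calls in all settings in which they were tested, and the other 10 lost theirs in at least 1. Foxj1 (-0.20 ± 0.12, adjusted p = 0.365), Tppp3 (-0.23, adjusted p = 0.388) and Zmynd10 (-0.19, adjusted p = 0.424) did not pass. The count ran from 6 to 16 with single libraries left out, with 6 without the naive untreated library numbered 2, 7 without number 1, 9 without the naive IL12-GEMy library numbered 1 and 7 without its number 4.

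Of the 15 members that fell with IL12-GEMy alone, 10 had over 6 kb of exonic sequence. Of 21 members under 3 kb, 2 fell, of 4 between 3 and 6 kb, 3 fell, and of 17 over 6 kb, 10 fell. The medians of the log2 difference were -0.24, -0.37 and -0.39, beside -0.0021, -0.03 and -0.07 for all genes in the same classes. Among all genes 0.872%, 1.72% and 2.12% fell in those classes. Across the 42 members, Spearman's rho of the difference with exonic length was -0.68 and Pearson's r -0.68, and over all genes with a length rho was -0.17. With the tumor alone the members' rho was -0.05, and the classes' medians were -0.44, -0.43 and -0.38. For the interaction, described below, the rho was 0.55, and calls fell on 1 of the 21 members under 3 kb, 3 of the 4 between 3 and 6 kb and 5 of the 17 over 6 kb. Between the treated groups the rho was 0.61, with no member called. These comparisons share libraries with each other, as do the points within each, and genes are not independent replicates. With single libraries left out the rho of -0.68 ran from -0.72 to -0.50. Length moved with the change under IL12-GEMy, and its part in the result was not tested.

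**Figure D3:**
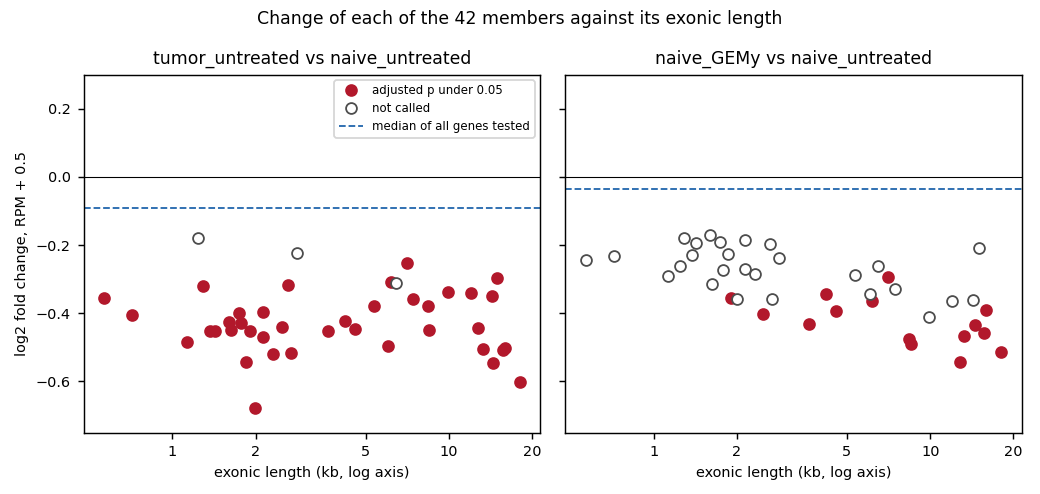
Log2 fold change of each of the 42 members (y axis) against exonic length in kb (log x axis), for the tumor alone and for IL12-GEMy alone; filled points passed an adjusted p of 0.05, and the dashed line is the median of all genes tested. With the tumor points scatter about -0.43 at any length, while with IL12-GEMy the long genes lie lower and hold most of the 15 called members.

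Within tumor-bearing mice, IL12-GEMy lungs were set against untreated lungs, the same tumor untreated libraries as in the first comparison. Of 42 members 1 rose, Mns1, and none fell, against 2.42% of all genes higher and 2.81% lower. At an unadjusted p under 0.05, 3 members were higher and 0 lower, and voom also called 1 higher and 0 lower. The share of all genes at that unadjusted threshold is not given here, so the 3 are not read as a result. The members' median log2 difference was 0.07, beside -0.01 over all genes. Libraries of Mns1 held 13.9, 12.9, 12.2 and 12 RPM in naive untreated lung and 10.3, 8.36, 12.5 and 10.7 RPM with IL12-GEMy alone. With the tumor they held 9.70, 10.7, 9.99 and 8.48 RPM untreated and 14.1, 12.3, 12.7 and 12.1 RPM after IL12-GEMy. Mns1 (chr9:72438529-72458576) rose by 0.38 ± 0.11 on the log2 scale (adjusted p = 0.0427), and its 4 treated tumor libraries all lay above its 4 untreated tumor libraries, as for 4.38% of all genes. This call was lost in 10 of 22 settings, with an adjusted p of up to 0.121, among them each omission of a tumor IL12-GEMy library. Mns1 was also the member most abundant in the cell product, at 32.9 RPM, and it overlaps Tex9 on the opposite strand; the part of either was not tested. Hydin (0.26 ± 0.10, adjusted p = 0.170) and Dnah5 (0.23 ± 0.10, adjusted p = 0.235) did not pass.

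Tumor IL12-GEMy lungs were also compared with naive IL12-GEMy lungs. No member passed in either direction, against 6.58% of all genes lower and 3.85% higher. At an unadjusted p under 0.05, 2 members were lower and 1 higher, and voom called 0 in each direction. These unadjusted counts also stand without a share over all genes and are not read as a result. The median log2 difference was -0.02, beside -0.07 over all genes. Tppp3, at -0.33 ± 0.14 (adjusted p = 0.129), and Mns1, at 0.29 ± 0.11 (adjusted p = 0.0850), were the lowest and highest. The sign of that median depended on scaling: it was 0.05 with median-of-ratios scaling, beside 0.0023 over all genes, 0.05 with TMM and 0.02 with quantile scaling. With median-of-ratios scaling Mns1 passed, and calls over all genes went from 1014 lower and 593 higher to 485 lower and 832 higher.

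The difference between the IL12-GEMy effects with and without a tumor was tested as an interaction, which uses all 16 lung libraries of the comparisons above. The tumor-mouse effect exceeded the naive-mouse effect for all 42 members, by 0.16 to 0.77 on the log2 scale, with a median of 0.35 beside 0.01 over all genes. Of the 42, 9 passed in that direction and 0 in the other, against 1.03% of all genes higher and 3.94% lower. They were Hydin at 0.77 ± 0.14 (adjusted p = 0.00451), Dnah5 at 0.69 ± 0.14 (adjusted p = 0.00920), Mns1, Dnah7a, Dnah9, Rsph4a, Spag17, Cfap206 and Ak7. Without the tumor, Hydin averaged 38.8 ± 2.7 RPM (SD, n = 4) untreated and 27.1 ± 2.7 RPM after IL12-GEMy. With the tumor the means were 25.7 ± 4.50 RPM untreated and 30.5 ± 1.52 RPM treated. Hydin, Dnah5, Rsph4a and Mns1 passed in all settings in which they were tested. The other 5 lost the call in at least 1, and the count ran from 4 to 18 with single libraries left out, with 18 without the tumor untreated library numbered 1. It was 4 or 5 without tumor untreated library 3 or 4, naive untreated library 1 or 2, or naive IL12-GEMy library 4.

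Libraries within a group differed in the same direction for many members. The median coefficient of variation over members was 6.10% in naive untreated, 10.2% in naive IL12-GEMy, 13.8% in tumor untreated and 10.2% in tumor IL12-GEMy lungs. In the tumor untreated group, library 1 was highest for 34 members and library 4 lowest for 23. In the tumor IL12-GEMy group library 1 was highest for 20 members and library 4 lowest for 30. In the naive IL12-GEMy group library 1 was highest for 18 and library 4 lowest for 22. In the naive untreated group library 2 was highest for 17 and library 3 lowest for 17. What a number shared between groups means is not stated in the labels, and its part in these deviations was not tested.

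Other genes of the motile cilium, from a list of which 96 were in the table and 95 were tested, were counted in the same way. With the tumor 66 fell and 1 rose, with a median log2 difference of -0.39. Spag8 and Tctex1d4, both axonemal proteins, had the widest falls, at -0.78 and -0.61. Among regulators Trp73, an activator of the multiciliated program, fell (-0.46, adjusted p = 0.00570). Ccno, a factor of centriole amplification, was the gene that rose, at 0.51 (adjusted p = 0.0122). Mcidas (-0.41), Gmnc (-0.35), Myb (-0.12), Rfx2 (0.03) and Rfx3 (-0.08) did not pass. Myb, also a gene of blood progenitors, stood at 226.7 RPM in the cell product.

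With IL12-GEMy alone 13 of the 95 fell and none rose, with a median of -0.28. Cfap54 (-0.49) and Cfap70 (-0.44), both axonemal proteins, had the widest falls. Within tumor mice none passed in either direction for IL12-GEMy, with a median of 0.05. Between the treated groups 1 fell, Rsph3a of the radial spokes, at -0.30. The interaction was higher for 6, led by Dnah1, an inner arm heavy chain, at 0.73 and Cfap54 at 0.56. Intraflagellar transport and primary cilium genes, which most cell types use, fell in 24 of 35 cases with the tumor and in 8 with IL12-GEMy alone, with medians of -0.32 and -0.17. Kif3b, the transport motor subunit with the highest level of that list, was the 1 that rose with the tumor, at 0.21.

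Markers of other lung cells moved beside the members, and their part in the result was not tested. With the tumor 12 of 14 club cell, 7 of 10 alveolar type 2, 4 of 10 alveolar type 1 and 8 of 8 general epithelial markers fell, with medians of -0.44, -0.38, -0.58 and -0.57. Scgb1a1, the club cell secretoglobin, fell by 0.39, Sftpc, surfactant protein C, by 0.53, and Ager and Cldn18 by 0.73 and 0.60 on the log2 scale. All 8 leukocyte markers rose with the tumor, with a median of 1.37, and their sum ran from 1262 to 1606 RPM in naive untreated and from 2661 to 4332 RPM in tumor untreated lungs. With IL12-GEMy alone 5 of 8 leukocyte markers rose, with a median of 0.61 and a sum of 1819 to 2462 RPM. In that comparison 1 of 14 club cell markers fell (median -0.30), and none of the alveolar type 2 (-0.04), alveolar type 1 (-0.22) or general epithelial markers (-0.18) passed.

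Within tumor mice 6 of the 7 tested markers of goblet cells, the mucus-making cells of the airway, rose with IL12-GEMy, with a median of 1.16. The rise was uneven between libraries. All 8 listed goblet markers summed to 213, 299, 1150.5 and 779 RPM in tumor IL12-GEMy lungs, and to 96.7 to 165 RPM in tumor untreated lungs. Muc5b, the main airway mucin at rest, rose by 0.92. In the same comparison 1 club cell marker and 1 alveolar type 2 marker rose, and 2 leukocyte and 2 neutrophil markers fell. Tumor IL12-GEMy lungs held 2443 to 3140 RPM of leukocyte markers. None of the 4 tested basal cell markers, of which Ngfr had the highest level, passed in any comparison, and neither did any of the 5 erythroid markers, of which Hba-a1 had the highest. Of 6 smooth muscle markers 3 fell with the tumor, though Acta2 did not pass (-0.40, adjusted p = 0.112). Chad, a cartilage gene, fell with the tumor (-0.64) and rose with treatment in tumor mice (0.51), as 1 of 2 tested cartilage markers. Of the 6 testis germ cell markers none was in the table.

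**Figure D4:**
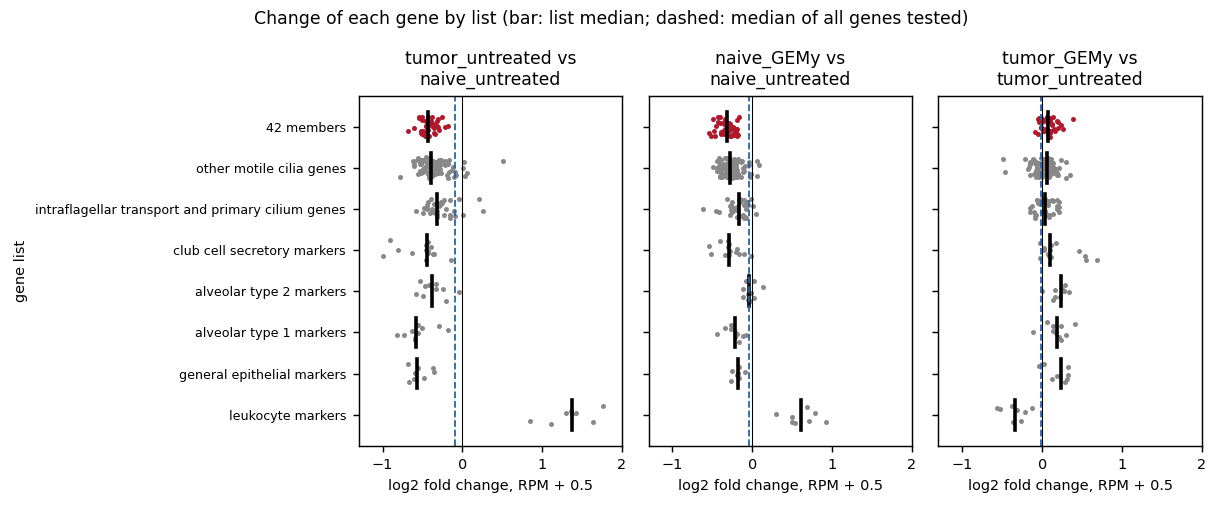
Each point is the log2 fold change of 1 gene, in 8 lists and 3 comparisons, with the list median as a bar and the median of all genes tested as a dashed line. Medians of the cilia and epithelial lists lie left of the line with the tumor; with IL12-GEMy alone those of the members (-0.32), other motile cilia genes (-0.28), club cell (-0.30), alveolar type 1 (-0.22) and general epithelial markers (-0.18) do so too, that of alveolar type 2 markers (-0.04) lies close to it, and leukocyte markers lie to the right in both.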

How the data were processed

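Values are the FPKM the authors deposited, per the file headers, as a single gene-by-library table; per the submitters' processing notes STAR 2.7.3a, Partek and mm10 were used. The strand setting is not given in the sources used here. The FPKM of each library times the listed gene length summed to 1000000 per library, so that length (the genomic span) was used by the authors, and FPKM times length / 1000 gives RPM. RPM was used because the span puts long dynein genes under an FPKM minimum. The step between low values gave each library's read total, and the share of whole numbers (tolerance 0.02) among recovered values below 1000 was 86.6% to 88.5%, too few for a count model.

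Genes with at least 0.5 RPM in at least 4 of the 16 lungs were fitted with limma 3.58.1 in R 4.3.3 (trend and robust moderation, 4 group means, log2(RPM + 0.5), two-sided, Benjamini-Hochberg over all 15422 genes, threshold 0.05). The fit was tested on simulated data. Fold changes are on the log2(RPM + 0.5) scale. Exonic lengths are unions of GENCODE vM21 exons on GRCm38. Library numbers are those of the sample titles. The members and marker lists, as well as the tests, were chosen with earlier results of these data known. Members are described in every library by a rule: Foxj1, the 2 highest of each role class, the 2 with the widest called change in each comparison and direction, and any called against the rest; of other lists, the regulators, the widest changes and the highest member. Alternatives covered pseudocount, minimum, scaling, moderation, weights, hemoglobin, compared groups only, replicate block and single libraries left out. A fit by voom on the recovered reads was chosen after seeing the data. No duplicated libraries were found.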

Additional observations from a re-analysis of the deposited data

Results flagged for a closer look

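Dixon's test singles out a library far from the other 3 of its group in 8 of the 172 groups of member values and sums examined, where chance gives about 1 in 20. The count is about what that rate gives, so these libraries are listed and not read as a result. In naive untreated lung, library 2 stood high for Dnah5 (69.0 RPM) and Hydin (42.8 RPM). In the same group library 3 stood low for Tekt1 (19.4 RPM) and Ak7 (34.6 RPM) and high for Pifo (12.3 RPM). In naive IL12-GEMy lung, library 3 stood high for Rsph4a (30.4 RPM). Low values stood apart for Tekt2 in tumor untreated library 4 (8.48 RPM) and for Dnali1 in tumor IL12-GEMy library 4 (24.9 RPM).

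The IL12-GEMy effect differed between tumor-bearing and naive mice for 9 members by the interaction test in limma, against 1.03% of all genes in that direction. Of these calls 4 (Hydin, Dnah5, Rsph4a and Mns1) held in all settings in which they were tested, and 5 were lost in at least 1. The log2 differences of the effects were 0.77 for Hydin, 0.69 for Dnah5, 0.67 for Mns1, 0.65 for Dnah7a, 0.59 for Dnah9, 0.58 for Rsph4a, 0.56 for Spag17, 0.50 for Cfap206 and 0.41 for Ak7. Effects without and with the tumor were -0.52 and 0.26 for Hydin, and -0.29 and 0.38 for Mns1.

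In the cell product library, which no comparison used, Mns1 stood at 32.9 RPM, while naive untreated lung averaged 12.8 RPM.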

How the results depend on the processing

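No called difference changed sign under the alternatives run, but the members' median between the treated groups turned from -0.02 to 0.05, 0.05 and 0.02 under median-of-ratios, TMM and quantile scaling. With log2(FPKM + 0.5), under which 23 members pass the minimum, 22 fell with the tumor, 7 with IL12-GEMy alone, and 3 rose in the interaction; fewer genes were tested there. With IL12-GEMy alone 24 fell when only the compared groups were in the fit and 31 with array weights, and the interaction rose for 25 with array weights. Shares over all genes are not given for these settings, so the higher counts do not by themselves set the members apart. Mns1, the only member that rose with treatment in tumor mice, was lost with the compared groups alone or hemoglobin as a covariate (0 members each). Between the treated groups Mns1 was called higher under median-of-ratios, TMM and quantile scaling and array weights (1 member each). The cause of these changes was not tested. Median-of-ratios and TMM scaling each left 29 members lower with the tumor, and hemoglobin as a covariate 30.

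With single libraries left out, the counts lower ran from 32 to 41 with the tumor and from 6 to 16 with IL12-GEMy alone. Counts higher ran from 0 to 3 for treatment in tumor mice, from 0 to 1 between the treated groups and from 4 to 18 for the interaction. The low end for IL12-GEMy alone came without naive untreated libraries 1 (7) or 2 (6) or naive IL12-GEMy libraries 1 (9) or 4 (7). Without naive untreated library 1 or 2, naive IL12-GEMy library 4, or tumor untreated library 3 or 4 the interaction gave 5, 4, 4, 4 and 5, and without tumor untreated library 1 it gave 18. For treatment in tumor mice the count was 3 without tumor untreated library 1 and 0 without library 3 or 4 of that group or any tumor IL12-GEMy library. Without naive IL12-GEMy library 3, 1 member was higher between the treated groups.

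The labels do not say what a shared replicate number means, so the main fit did not take it as a pairing. The descriptions number the lung libraries in an order in which same-numbered libraries, 1 of each group, stand next to each other. What that order means is not stated. Deviations from group means gave r from -0.249 to 0.493 over 24 same-numbered pairs. The median r was 0.0865, beside -0.0278 for pairs with different numbers. Of 16 libraries 9 correlated best with their own number, a hint of pairing that the labels do not settle. With the replicate block 39 members fell with the tumor, 23 with IL12-GEMy alone and 1 (Tppp3) between the treated groups, and 14 rose in the interaction. Without the block, in the main fit, these counts were 39, 15, 0 and 9. The shares of all genes called with the block are not given here. Of the members called in the first 2 comparisons, 28 of 39 and 5 of 15 kept the call in all settings in which they were tested. The planned edgeR and DESeq2 fits were not run, since recovered reads were not whole; voom on those reads gave 39, 15, 1, 0 and 7 calls. At this depth the lowest member rested on 74 reads in a library.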
